A study of Mus musculus with 2 samples.

Results

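The Mir17-92 cluster is a group of 6 microRNA hairpins, Mir17, Mir18, Mir19a, Mir20a, Mir19b-1 and Mir92-1, carried by the noncoding transcript Mir17hg on mouse chromosome 14. The members were taken by gene symbol, matched by Ensembl identifier to GENCODE M21, and are 6 of the 1973 miRNA genes listed in the count files. Small RNA with a size range under 30 nt was sequenced from limb of B6NCrl mouse embryos at embryonic day 11.5. The series has 1 group of 2 libraries, from healthy embryos of both sexes, pooled from 109 embryos for replicate 1 and from 88 for replicate 2. The labels number the pools as biological replicates 1 and 2 but give both 1 donor identifier. The SDs here therefore measure only the spread between these libraries, which may be technical. The p-values of the exact binomial test set the difference between these libraries against counting error alone. There is no second tissue, age or genotype.

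MicroRNAs are cut from hairpins in a longer primary transcript by the enzymes Drosha and Dicer, and 1 arm of the hairpin, the guide, is loaded into an Argonaute protein. The guide pairs with messenger RNAs mainly through its seed, bases 2 to 8 from the 5′ end, so miRNAs with 1 seed share many targets. The Mir17-92 cluster is known for promoting proliferation and survival, with targets that include the cell death gene Bcl2l11. It also matters in the limb: loss of a copy of the human cluster causes a form of Feingold syndrome, in which digits are short or fused, and mice that lack the cluster have skeletal defects.

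The guide arms fall into 4 seed families. Their sequences are shown because the levels below are described by family and because sequence sharing limits some of the counts. They come from RefSeq on GRCm38.p6, 5′ to 3′, with the seed in capitals. All 6 hairpins matched, with the same coordinates in RefSeq and GENCODE.
miR-17-5p, of Mir17: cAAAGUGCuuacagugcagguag
miR-20a-5p, of Mir20a: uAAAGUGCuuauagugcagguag
miR-18a-5p, of Mir18: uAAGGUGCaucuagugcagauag
miR-19a-3p, of Mir19a: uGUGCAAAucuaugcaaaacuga
miR-19b-3p, of Mir19b-1: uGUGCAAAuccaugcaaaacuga
miR-92a-3p, of Mir92-1: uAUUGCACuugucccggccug

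Counted from the 5′ end, miR-17-5p and miR-20a-5p share the miR-17 seed and differ by C1U and C12U. The guide of Mir18 differs from that of Mir17 at 6 of 23 bases, among them A4G within the seed. The guides of Mir19a and Mir19b-1 share the miR-19 seed and differ only by U11C. Mir92-1 alone carries the miR-92 seed within the cluster.

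The hairpins lie in exon 2 of Mir17hg (ENSMUSG00000089726.2; chromosome 14, 115042879 to 115046727, plus strand, GRCm38, the assembly also called mm10). They span 836 bases, from 115043671 to 115044506, and begin 792 bases after the start of the host gene. Mir17 (ENSMUSG00000065508.1) comes first, followed by Mir18 (ENSMUSG00000065403.1) from 115043851 to 115043946 and Mir19a (ENSMUSG00000065416.1) from 115044000 to 115044081. Mir20a (ENSMUSG00000065442.1) runs from 115044157 to 115044263, Mir19b-1 (ENSMUSG00000076256.1) from 115044305 to 115044391, and Mir92-1 (ENSMUSG00000076062.1) from 115044427 to 115044506. The gaps between neighbours are 96, 53, 75, 41 and 35 bases, in this order. The 2 miR-19 hairpins therefore lie on either side of Mir20a.

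Sense counts of all miRNA genes were 2953085 in replicate 1 and 3459176 in replicate 2, and CPM here means sense counts scaled to a library total of 1000000. Multimapping reads took 24.7% and 23.4% of all reads and are in no gene's count. With 0 counts, a level of up to 1.02 CPM is allowed in replicate 1 (3 counts of the total), and of up to 0.867 CPM in the other library. Reads include PCR copies of 1 molecule, so these floors and the Wilson 95% intervals below describe counting error alone. The tissue label was checked on marker miRNAs. The 5 limb mesenchyme markers (Mir196b, Mir10a, Mir10b, Mir214 and Mir199b) summed to 165804 and 160748 CPM. Mir126a of endothelium stood at 24254 and 24135 CPM, the 5 epithelial markers summed to 9366 and 11043 CPM, and the 2 erythroid markers to 367 and 481 CPM. Cartilage markers (Mir140 and Mir455) summed to 15935 and 14251 CPM, those of skeletal muscle to 560 and 576 CPM, and Mir223 and Mir155 of white blood cells to 656 and 720 CPM. Mir122 of liver stood at 21.7 and 14.7 CPM. Mir1a-1 of muscle and Mir9-2 of neural tissue were at 0 in both libraries, but both have near-identical copies, so these 0s do not limit the mature miRNAs. The neural markers Mir124-1, Mir124-2 and Mir9-1 and the white blood cell marker Mir142 are not among the listed genes. The cell types of the limb were pooled in 1 tissue, and their part in the level of the cluster was not tested.

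The 6 hairpins together made up 11.8% ± 0.09 of all sense counts (SD, n = 2, as for all means that follow). Multimapping reads are in neither the counts of the 6 hairpins nor the total. They held 345179 counts in replicate 1, or 11.69% (Wilson 95% interval 11.65 to 11.73%), and 408603 in replicate 2, or 11.81% (11.78 to 11.85%). The intervals of the libraries do not overlap, so the shares differed by more than counting error, though by little. In bulk tissue, fewer cells that express a miRNA and less of it per cell cannot be told apart. All 6 members had counts well above the floor in both libraries, and none had a read on the opposite strand.

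Within the cluster the highest level, of Mir17, was 1627 times the lowest, of Mir19b-1, with all 6 hairpins annotated in the same exon. The guide of Mir19b-1 is identical to that of a hairpin on chromosome X. Reads that fit both are in no count, so this fold can be too large. Mir17 had 209824 and 251016 sense counts in replicates 1 and 2, or 71052 and 72565 CPM. Mir20a, with the same seed, had 76468 and 88887 counts, or 25894 and 25696 CPM. These 2 hairpins held 83.1% ± 0.17 of the counts of the cluster, in reads placed at 1 locus. Mir18 had 39054 and 46361 counts, or 13225 and 13402 CPM. Mir92-1 had 19288 and 21729 counts, or 6531 and 6282 CPM. For each of these hairpins the libraries lay close together, and no value of one hairpin overlapped with that of another.

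The 2 miR-19 hairpins stood far below the rest. Mir19a had 415 and 457 counts, or 141 and 132 CPM, and Mir19b-1 had 130 and 153 counts, or 44.0 and 44.2 CPM. Together they held 0.154% ± 0.006 of the cluster, against 61.1% ± 0.46 for Mir17, 22.0% ± 0.28 for Mir20a, 11.3% ± 0.02 for Mir18 and 5.45% ± 0.19 for Mir92-1. For Mir19a the Wilson 95% interval of its share of the cluster reached from 0.109 to 0.132% in replicate 1 and from 0.102 to 0.123% in the other library, and these intervals overlap. The hairpins whose guide lies on the 5′ arm, Mir17, Mir20a and Mir18, held 94.4% ± 0.20 of the cluster. Whole hairpins were counted, so the arms themselves cannot be told apart. Reads that hold only the guide of Mir19b-1 or Mir92-1 are in no count. All these shares are therefore of reads placed at 1 locus, and those of the 5′-guide hairpins can be too high.

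**Figure D1:**
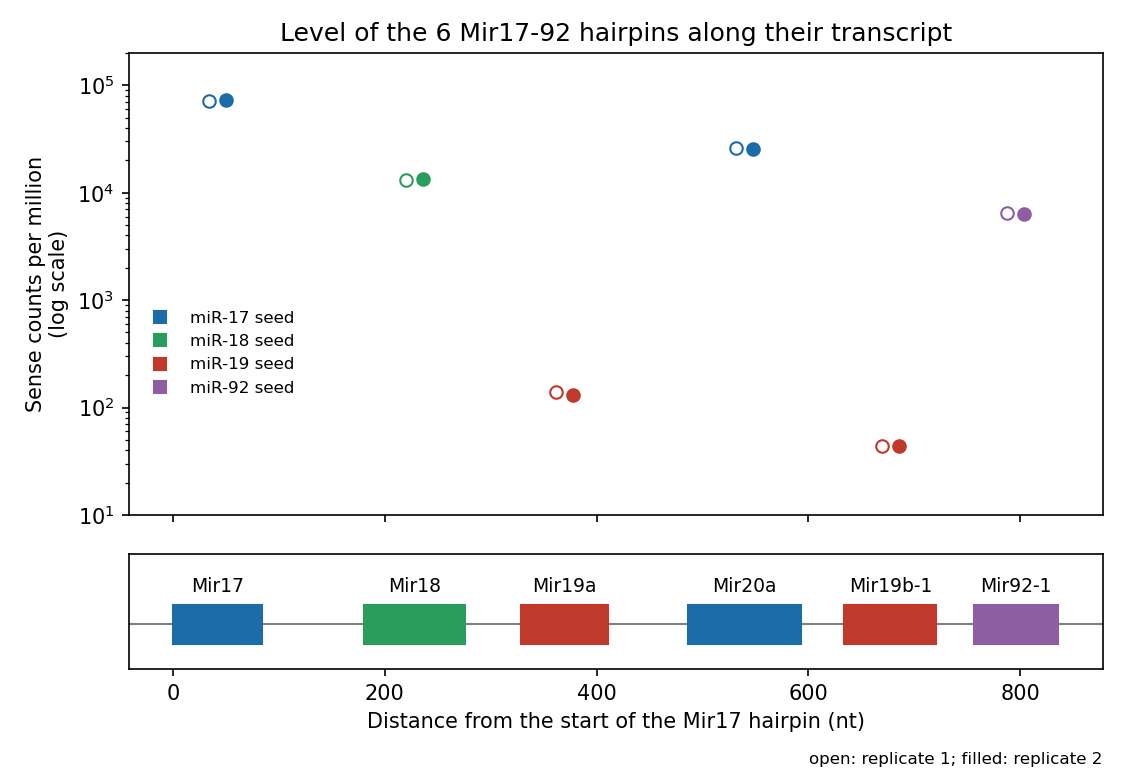
Upper panel: level of each hairpin in CPM (log scale) at its place in the transcript, with replicate 1 as open and replicate 2 as filled circles, coloured by seed family. Lower panel: the hairpins to scale, with distance in nt from the start of Mir17. Mir19a (141 and 132 CPM) and Mir19b-1 (44.0 and 44.2 CPM) sit far below their direct neighbours. The levels of Mir19b-1 and Mir92-1 leave out reads that fit more than 1 hairpin.

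The order of level was Mir17, Mir20a, Mir18, Mir92-1, Mir19a and Mir19b-1 in both libraries, and it does not follow the order along the transcript. Every step in it was larger than the spread between libraries. Within a library, Mir17 stood 1.48 ± 0.03 log2 units above Mir20a, Mir20a 0.95 ± 0.02 above Mir18, and Mir18 1.06 ± 0.05 above Mir92-1. The widest step was from Mir92-1 to Mir19a, at 5.55 ± 0.02 log2 units. Mir19a was 1.63 ± 0.07 log2 units above Mir19b-1, where the counting error, 0.15 in replicate 1 and 0.13 in replicate 2, exceeded the SD. No test of these ratios was made, because the smallest p that an exact sign-flip test of 2 libraries allows is 0.5. Both libraries were made alike, so an effect of sequence on library preparation is not part of these errors, and it was not tested.

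Read along the transcript, the level rose and fell between neighbours. Mir17 was 2.43 ± 0.01 log2 units above Mir18, the next hairpin. Mir18 in turn was 6.61 ± 0.08 log2 units, or 97.7-fold, above Mir19a. Mir20a was 7.56 ± 0.06 log2 units, or 189-fold, above Mir19a just before it, and 9.19 ± 0.01 log2 units, or 585-fold, above Mir19b-1 just after it. The counting error of that last ratio was 0.13 in replicate 1 and 0.12 in replicate 2, larger than its SD. From Mir19b-1 to Mir92-1, 35 bases further on, the level rose again, with Mir92-1 7.18 ± 0.04 log2 units above. Ratios with Mir19b-1 or Mir92-1 are of reads placed at 1 locus, a limit set out below. The hairpins are 80 to 107 bases long, so levels per base of hairpin were compared too: they kept every direction.

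Exact sharing of a guide with another listed hairpin bears on 2 of the 6 counts. Of the guide arms, those of Mir19b-1 and Mir92-1 are identical to the guides of Mir19b-2 and Mir92-2 on chromosome X, so a read of the mature guide fits a pair of hairpins. No other mature arm of the 6 hairpins, and no first 18 bases of one, had an exact match in any of the other listed genes with a hairpin sequence, 1894 in all; matches elsewhere in the genome were not searched. The guide of Mir19a thus fits no other listed hairpin exactly. Matches with mismatches were not searched, and this guide differs from that of Mir19b-1 only by U11C. The hairpins of each pair are shown with their longest common run in capitals (RefSeq, GRCm38.p6), because a read that lies within the capitals cannot be placed at 1 of them.
Mir19b-1: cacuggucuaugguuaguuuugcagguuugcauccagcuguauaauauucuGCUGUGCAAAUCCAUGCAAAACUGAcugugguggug
Mir19b-2: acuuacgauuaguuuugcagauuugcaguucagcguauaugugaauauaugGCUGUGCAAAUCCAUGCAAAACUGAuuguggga
Mir92-1: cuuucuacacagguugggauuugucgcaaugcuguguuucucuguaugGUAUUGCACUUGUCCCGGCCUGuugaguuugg
Mir92-2: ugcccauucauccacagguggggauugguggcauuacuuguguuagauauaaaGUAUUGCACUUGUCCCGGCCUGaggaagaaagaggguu

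The common run is 25 bases for the miR-19b pair, of which 2 lie before the guide and 0 after it. It is 22 bases for the miR-92a pair, of which 1 lies before the guide and 0 after it. The deposited files hold 1644176 multimapping reads for replicate 1 and 1738400 for replicate 2, and do not record which hairpins they fit. A read that holds only the guide of Mir19b-1 or Mir92-1 fits 2 hairpins, and multimapping reads are in no gene's count. Such reads are therefore missing from the counts of Mir19b-1 and Mir92-1, which are too low by an amount not known here. The place of these hairpins in the order above is that of reads placed at 1 locus.

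Among all 1973 listed genes, the members were spread widely in rank. By sense count Mir17 held rank 4 in replicate 1 and rank 3 in replicate 2, and Mir20a held rank 10 in both. Mir18 held ranks 18 and 17, and Mir92-1 ranks 31 and 33. Mir19a stood at ranks 177 and 178 and Mir19b-1 at 240 and 230. In all, 1267 listed genes had no sense count in either library.

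**Figure D2:**
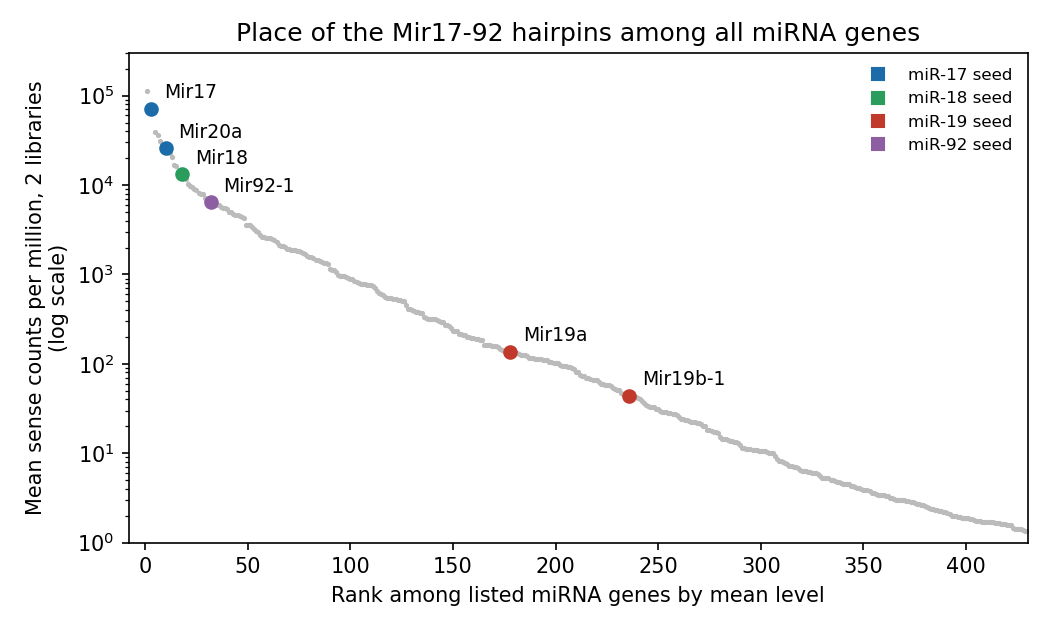
Mean level over the 2 libraries, in CPM (log scale), of each miRNA gene against its rank, with the 6 hairpins coloured by seed family and other genes in grey. Mir17, Mir20a, Mir18 and Mir92-1 lie among the first 33 genes, and Mir19a and Mir19b-1 lie at mean ranks 178 and 236. Multimapping reads are left out.

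The genes closest in mean level to each member, in reads placed at 1 locus, were named by a fixed rule. They are the next above and the next below over the 2 libraries. Mir17 lay between Mir322, at 72591 ± 1081 CPM, and Mir196b, at 70319 ± 2620 CPM, and the values of both overlapped with those of Mir17, so their order was not resolved. Mir20a lay between Mir99a, at 27469 ± 2053 CPM, and Mir126a, at 24194 ± 84 CPM, and neither overlapped with it. Mir18 lay between Mir140, at 13764 ± 1195 CPM, which overlapped, and Mir106b, at 12651 ± 441 CPM, which did not. Mir92-1 fell between Mir181c and Mir125a, Mir19a between Gm26117 and Mir24-2, and Mir19b-1 between Mir1955 and Mir196a-1, and the values of all 6 overlapped with those of the member. Gm26117 stood at 264 CPM in replicate 1 and 11.0 CPM in replicate 2, so its mean describes neither library.

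Related clusters carry the same seeds: Mir106a-363 on chromosome X and Mir106b-25 in the replication gene Mcm7 on chromosome 5. The Mir17-92 cluster held 78.8% ± 0.28 of the counts of the 15 hairpins of the 3 clusters. Its share of the miR-17 seed family was 77.0% ± 0.27, through Mir17 and Mir20a; Mir106b and Mir93 of chromosome 5 supplied most of the rest, and Mir106a and Mir20b of chromosome X the remainder. Mir6383, which also carries this seed, had 0 counts in both libraries. In the miR-18 family Mir18 held 99.04% ± 0.002, with Mir18b at 378 and 450 counts; the Wilson 95% interval, 98.9 to 99.1% in both libraries, was wider than this SD.

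Mir19a and Mir19b-1 held 93.0% ± 0.20 of the miR-19 family, but that family as a whole took only 0.0194% ± 0.0007 of all sense counts, against 12.7% ± 0.16 for the miR-17 family. Mir19b-2, the X-linked member, had 42 and 45 counts. In the miR-92 family, which took 0.962% ± 0.015 of all sense counts, Mir92-1 held 66.6% ± 0.83. The remainder came from Mir363, Mir25, Mir92b, Mir32 and Mir92-2, at means between 297 and 1113 CPM. Mir367, of the pluripotency cluster Mir302-367, had 0 counts in replicate 1 and 4 in replicate 2. The guides miR-19b-3p and miR-92a-3p each fit 2 listed hairpins, and reads that fit both are in no count. The miR-19 and miR-92 totals leave these reads out. Shares within these families, and the comparison with the miR-17 family, are thus of reads placed at 1 locus.

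**Figure D3:**
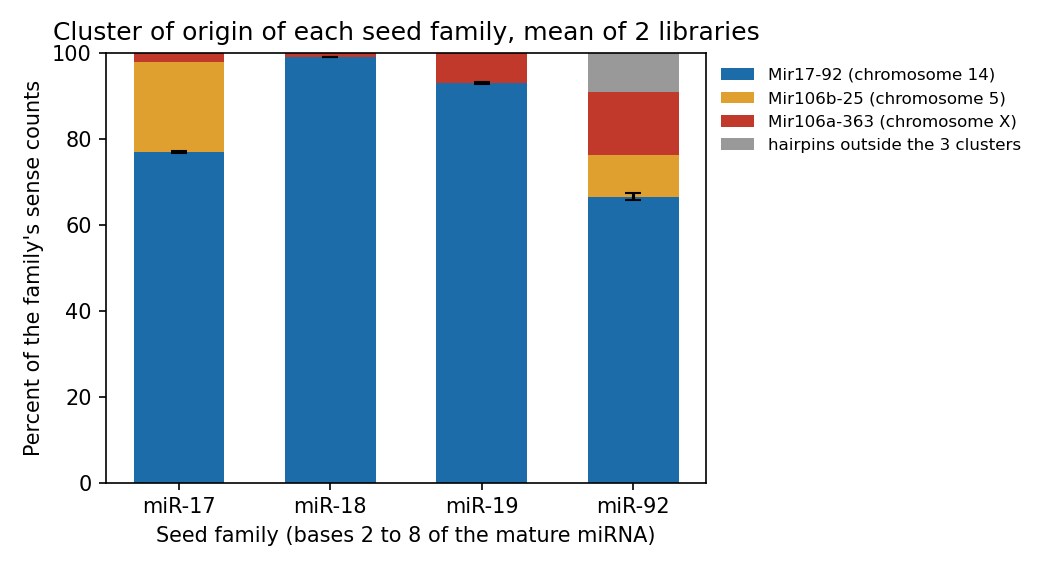
Share of each seed family's sense counts (percent, mean of 2 libraries) by the cluster the hairpin lies in, with the SD of the Mir17-92 share as an error bar. The Mir17-92 cluster held between 66.6% (miR-92) and 99.04% (miR-18) of the family.

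The X-linked cluster has a matching hairpin for 5 of the 6 members, all but Mir19a, and each match was lower. Mir18 stood 6.69 log2 units above Mir18b, with an SD of 0.003 and a counting error of 0.07 in each library, and Mir17 stood 5.51 ± 0.06 above Mir106a. The guides of Mir17 and Mir106a differ only by U10A, and those of Mir18 and Mir18b by A18U and A20U. Mir20a stood 4.59 ± 0.02 log2 units above Mir20b, from which its guide differs by U1C and U10C. Mir92-1 was 4.43 ± 0.07 log2 units above Mir92-2, in reads placed at 1 locus. The smallest step was 1.70 ± 0.10 for Mir19b-1 over Mir19b-2, with a counting error of 0.26 and 0.24, also in reads placed at 1 locus.

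The chromosome X hairpins showed a low miR-19b beside a high first hairpin as well. There Mir106a, which comes first, was 6.86 ± 0.05 log2 units above Mir19b-2, with a counting error of 0.22 in each library. In the chromosome 14 cluster Mir17 was 10.67 ± 0.02 log2 units above Mir19b-1, with a counting error of 0.13 and 0.12. Both ratios use a miR-19b count that leaves out reads of the guide alone and is too low by an unknown amount. Against the chromosome 5 cluster the differences were smaller: Mir17 was 2.51 ± 0.03 log2 units above Mir106b, Mir20a was 0.90 ± 0.04 above Mir93, and Mir92-1 was 2.80 ± 0.11 above Mir25.

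**Figure D4:**
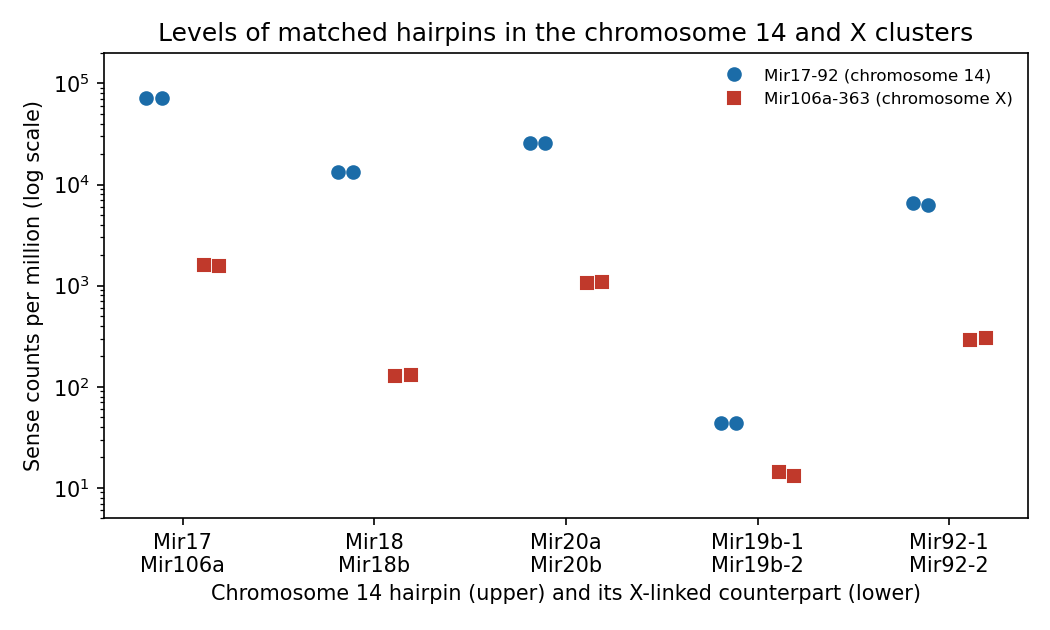
Level in CPM (log scale) of each chromosome 14 hairpin (circles) and its X-linked counterpart (squares), with 1 point per library, replicate 1 to the left. The chromosome 14 hairpin is higher at all 5 positions, and the miR-19b hairpins are the lowest of each cluster. Reads that fit more than 1 hairpin are left out.

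The 2 libraries gave nearly the same levels for the cluster. Every listed gene with 10 or more counts, 422 in all, was tested for a difference between the libraries by a two-sided exact binomial test on TMM-scaled library sizes, with Benjamini-Hochberg adjustment over all of them. It compares these libraries and no conditions. Of the 6 hairpins 3 passed, against 21.3% of all tested genes. Mir17 was higher in replicate 2 (9.48% of tested genes passed in this direction), at a log2 ratio of 0.02 (adjusted p = 0.00029, exact binomial test). Mir20a and Mir92-1 were lower in replicate 2 (11.8% passed in this direction), at −0.02 and −0.07 (adjusted p = 0.0049 and 1.27e-05, exact binomial test).

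These calls rest on very deep counts: the median size of the log2 ratio was 0.08 over the 201 tested genes with a mean of 100 CPM or more, so all 3 hairpins differed by less than a typical gene. With the test widened by the overdispersion of the median gene, only Mir92-1 still passed, and with that of the mean over genes none of the 6 did. Mir20a also failed when libraries were scaled by total counts (adjusted p = 0.32, exact binomial test) and when both strands were counted (adjusted p = 0.066, exact binomial test). Mir18, Mir19a and Mir19b-1 did not pass, with log2 ratios of 0.01, −0.10 and −0.01. The median over the 6 was −0.02, against 0.00 over all tested genes. Of the 9 hairpins of the related clusters 2, Mir106b and Mir93, passed, against 21.3% of all tested genes. Both were higher in replicate 2, a direction in which 9.48% of tested genes passed.

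**Figure D5:**
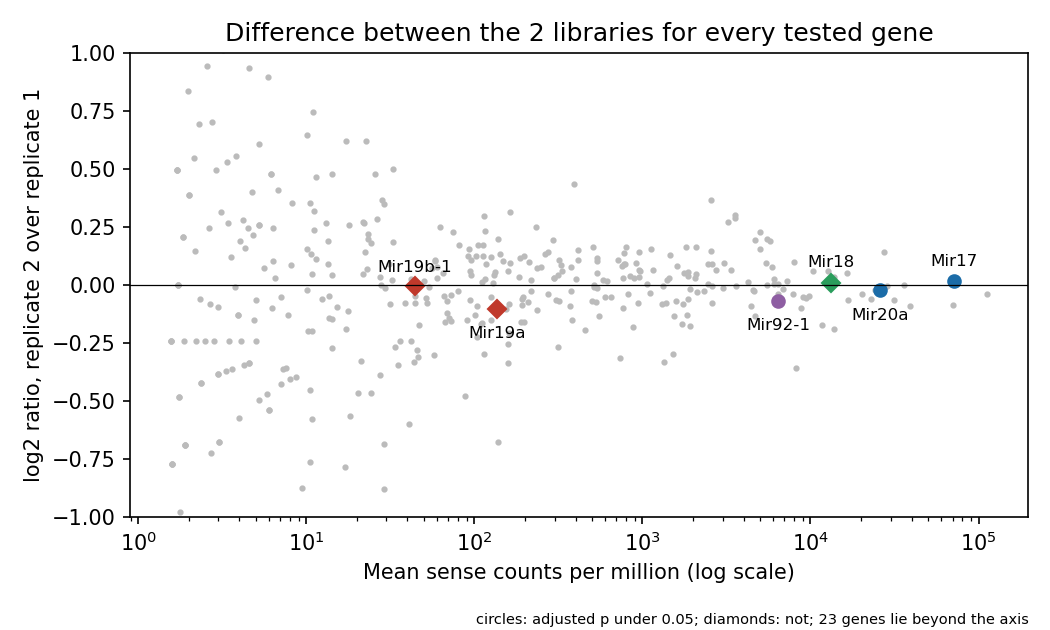
log2 ratio of replicate 2 over replicate 1 against mean level in CPM (log scale) for each tested gene; the 6 hairpins are coloured by seed family, as circles where the adjusted p was under 0.05 and as diamonds where it was not, and 23 other genes lie beyond the axis. All 6 hairpins lie between −0.10 and 0.02.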

How the data were processed

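The authors deposited 1 file per library with raw read counts per miRNA gene, not normalized: both strands, sense and opposite strand. The notes deposited with each sample name assembly mm10 and GENCODE M4, with aligner and counter not given in the sources used here. The sense column was identified from its values, since it holds nearly all counts. Lines for unmapped, multimapping and no-feature reads stayed out of library sizes and tests; reads without a feature on either strand were 6.45% and 5.39%.

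Symbols and coordinates came from GENCODE M21 (1894 of 1973 identifiers matched) and sequences from RefSeq (GRCm38.p6). Shares and within-library log2 ratios are mean ± SD over 2 libraries. TMM factors came from edgeR 4.0.16 on genes with 10 or more summed counts. The quasi-likelihood test was not used, since there is 1 group. Log2 ratios between libraries used a prior count of 0.5. DESeq2 1.42.0 gave alternative size factors. The binomial test was tested on data simulated with counting error alone, so that check does not cover the larger spread between these libraries. Chi-square over degrees of freedom between the libraries was 19.0, so they do not repeat 1 library. Hairpins were folded with ViennaRNA 2.7.2. Python 3.11.15 with scipy 1.17.1, pandas 2.3.3 and statsmodels 0.14.6 did the rest. Named genes were the 6 hairpins, those of the 2 related clusters, listed genes with a guide seed of the cluster (all 19, detected at 10 CPM or not, are counted), and the neighbours in level. The members and lists were chosen with earlier results of these data known.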

Additional observations from a re-analysis of the deposited data

How the results depend on the processing

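The share of the cluster in all sense counts was 11.5% with both strands counted and 5.34% of all reads, unmapped and multimapping ones included. Its share of the 15 hairpins of the 3 related clusters was 78.0% without hairpins of identical guide arm. The number of genes that differed between the libraries was 48 with the test widened by the median gene and 12 with the mean over genes; it stayed within 1.5 times of 90 under the other scalings, filter and count column. The log2 ratio of Mir19b-1 between the libraries, −0.007, turned to 0.00598 with total counts as the scaling, and passed in neither. None of 25 pair ratios changed sign; division by hairpin length, chosen after seeing the data, moved them by at most 0.42, and 0.5 added to each count by at most 0.016. Each library alone gave a share of the cluster between 11.69 and 11.81%. Depth limits the miR-19 hairpins most, with 130 to 457 counts. No paired analysis was possible because the series has 1 group.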

Other observations

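The predicted fold of each hairpin and the base composition of its guide were set beside the levels. By RNAfold the minimum free energy was −38.7 kcal/mol for Mir19a and −37.8 for Mir19b-1, the least abundant members, and −38.6 for Mir20a, −36.7 for Mir17, −34.0 for Mir92-1 and −29.2 for Mir18. GC content of the guide was 34.8% for Mir19a, 39.1% for both Mir19b-1 and Mir20a, 43.5% for Mir18, 47.8% for Mir17 and 57.1% for Mir92-1. Mir20a and Mir19b-1 differed 585-fold in count, but the counts of Mir19b-1 and Mir92-1 leave out reads of the guide alone. GC content of the whole hairpin lay between 43.7% and 47.5% for all 6. With 6 hairpins of 1 transcript these values are a description, and no relation was tested.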
